A study of Mus musculus with 6 samples.

Results

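Lysosomal cholesterol release and esterification was followed through 8 genes, Lipa, Npc2, Npc1, Scarb2, Soat1, Nceh1, Scarb1 and Cyp27a1, chosen by name in a table of 13960 gene rows. Each of the 8 was on 1 row, and all 8 were among the 13042 genes tested. The libraries came from the site of a contusion of the mouse spinal cord at T8, with 3 libraries made 7 days and another 3 made 3 days after injury. All 6 came from CD45.1 mice made into chimeras with LysMCre:Rplfl/fl marrow, in which Cre under the lysozyme M promoter, active in macrophages and other myeloid cells, puts an epitope tag on a ribosomal protein, and ribosome-bound RNA was precipitated through that tag. The labels do not give the animals' age, nor whether a library is 1 animal or a pool, and neither an uninjured cord nor unprecipitated RNA is among the samples. The p-values therefore measure the spread between these libraries.

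Macrophages at a cord injury take up myelin and dying cells, which are rich in cholesterol. Cholesteryl esters that reach the lysosome are split by acid lipase (Lipa); the freed cholesterol is bound by the soluble carrier Npc2, handed to the membrane protein Npc1 and passed on to other membranes. In the endoplasmic reticulum Soat1 turns surplus cholesterol back into esters, which are stored in lipid droplets, and Nceh1 splits such esters again at neutral pH. Cholesterol can leave the cell to lipoprotein through Scarb1, or be hydroxylated in mitochondria by Cyp27a1.

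Values are FPKM, fragments relative to transcript length and sequencing depth, so that levels of different genes can be set beside each other per length. Changes are differences of log2(FPKM + 1), 7 days minus 3 days, with the SE, and a gene was called where limma's p, adjusted over all 13042 genes, was at most 0.05. In these precipitates, more cells of a type and more RNA per cell cannot be told apart.

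At 7 days 7 of the 8 genes were called higher and 0 were called lower (0 also at an unadjusted limma p of 0.05). Of all genes tested, 18.8% were called higher and 20.3% lower. The exception, Cyp27a1, passed the unadjusted limma threshold but not the adjusted one. In all 8 genes the 3 libraries at 7 days lay above the 3 at 3 days, which was so for 26.8% of all tested genes, while 28.6% had all 7-day libraries below all 3-day libraries. The median log2 change of the 8 was 0.79, and that of all tested genes was -0.04. The largest change was that of the lysosomal membrane protein Scarb2 (1.49), and the smallest that of the plasma membrane receptor Scarb1 (0.44). The summed level of the 8 genes was 1977, 2134 and 2054 FPKM at 7 days and 954, 998 and 1090 FPKM at 3 days. As a share of the summed FPKM of all tested genes this was 0.511% to 0.526% at 7 days and 0.264% to 0.295% at 3 days. Every 7-day sum lay above every 3-day sum on both scales. The authors' deposited table gave q-values of 0.05 or less, with a higher 7-day mean, to all 8 genes, beside 17.8% of the tested genes.

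**Figure D1:**
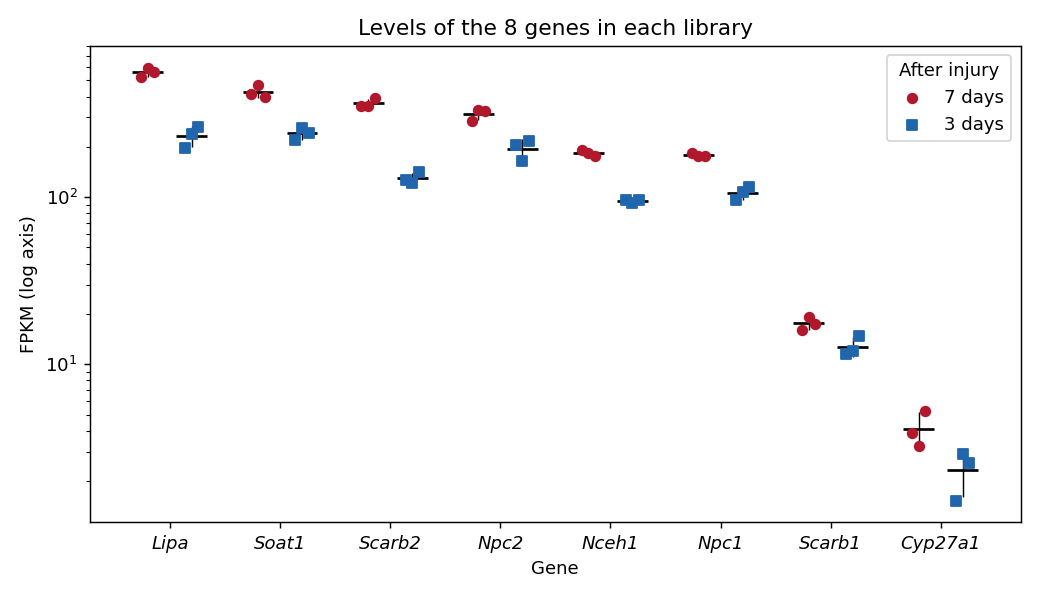
FPKM of the 8 genes on a log axis in the 3 libraries at 7 days (circles) and the 3 at 3 days (squares), with the mean (horizontal line) and SD (vertical line) of each time. Genes run from the highest to the lowest 7-day mean, from Lipa at 561 FPKM to Cyp27a1 at 4.12 FPKM, and in each gene the circles lie above the squares.

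Other contents of the libraries differed between the times as well. Of 36 tested markers of oligodendrocytes, astrocytes, neurons, endothelium, fibroblasts with pericytes, and red cells, 31 were called lower and 1 higher at 7 days. Over all tested genes, 20.3% were lower and 18.8% higher. Their summed level was 415 to 544 FPKM at 7 days and 953 to 2010 FPKM at 3 days, highest in 3-day replicate 2, and 0 of the 36 was listed at 0 in any library. Of 6 tested monocyte markers 4 were lower, and of 6 tested microglia markers 5 were higher, with sums of 2226 to 2451 FPKM at 7 days and 750 to 937 FPKM at 3 days. Of 6 tested neutrophil markers 1 was higher and 1 lower, with sums of 31.2 to 49.0 FPKM at 7 days and 48.3 to 53.2 FPKM at 3 days. Among these, Mpo was at 0 in all 3 libraries at 7 days and in 1 at 3 days, and the others were above 0 in every library. The neutrophil markers Ly6g, Elane and Retnlg have no row. The 7 tested macrophage markers held 3 that were higher and 2 that were lower, with sums of 1373 to 1410 FPKM at 7 days and 1303 to 1490 FPKM at 3 days; the macrophage markers Emr1 and Lyz2 had unreliable rows and were set aside. Of T, NK and B cell markers only Cd4 was tested, with a mean of 1.57 FPKM at 7 days and 0.231 FPKM at 3 days. What part these other cells had in the values of the 8 genes was not tested. With each library scaled to the 7 macrophage markers, the same number of the 8 genes, 7, was called higher, with log2 changes from 0.39 to 1.44. Without 3-day replicate 2, 6 were called higher, as Scarb1 was lost.

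The regions in front of 3 of the genes are shown because the lipase, the esterifying enzyme and the ester hydrolase changed together. They span 250 bases before to 50 bases after the gene's start, in RefSeq's sequence of build GRCm38.p6, each read 5′ to 3′ on the gene's own strand. Lipa is at chr19:34527425-34527724 (minus strand), Soat1 at chr1:156474279-156474578 (minus strand) and Nceh1 at chr3:27182754-27183053 (plus strand). The capitals mark CACGTGA, which contains CACGTG, the centre of the element read by the lysosomal regulator TFEB.
Lipa: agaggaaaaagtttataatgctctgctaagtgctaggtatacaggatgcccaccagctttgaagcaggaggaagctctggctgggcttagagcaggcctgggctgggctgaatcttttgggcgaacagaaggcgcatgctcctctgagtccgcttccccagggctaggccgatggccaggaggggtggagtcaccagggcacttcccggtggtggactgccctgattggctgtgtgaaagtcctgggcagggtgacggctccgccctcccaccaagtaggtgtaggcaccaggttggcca
Soat1: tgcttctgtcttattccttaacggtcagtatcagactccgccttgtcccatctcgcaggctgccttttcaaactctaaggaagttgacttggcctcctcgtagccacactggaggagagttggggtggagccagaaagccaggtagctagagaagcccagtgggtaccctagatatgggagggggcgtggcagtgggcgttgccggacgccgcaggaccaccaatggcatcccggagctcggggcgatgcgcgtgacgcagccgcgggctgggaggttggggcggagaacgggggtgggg
Nceh1: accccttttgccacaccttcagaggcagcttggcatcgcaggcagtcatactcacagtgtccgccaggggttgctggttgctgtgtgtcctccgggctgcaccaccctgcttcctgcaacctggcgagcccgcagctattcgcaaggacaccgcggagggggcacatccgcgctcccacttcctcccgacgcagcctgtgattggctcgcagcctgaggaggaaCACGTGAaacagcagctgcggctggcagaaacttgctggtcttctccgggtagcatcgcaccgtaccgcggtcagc
The search was for CACGTG, which reads the same on both strands, and for its longer forms TCACGTG and CACGTGA, which are each other's reverse complement. Such a region was searched for 6 of the 8 genes, and those of Npc1 and Scarb1 were not. Of the 6, only that of Nceh1 contained either form, starting 26 bases before the gene's start. Of the 32851 regions in RefSeq's table, 7.15% contained CACGTG and 3.77% a longer form. A match of letters is a description and not a binding site, and the Lipa and Soat1 windows lack these letters only.

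Lipa, the acid lipase that frees cholesterol and fatty acids from the esters delivered to lysosomes, was at 526.5, 597 and 558 FPKM at 7 days and at 197, 238 and 263 FPKM at 3 days. The lowest 7-day library was 2.00 times the highest 3-day library, so the times did not overlap. The log2 change was 1.27 ± 0.14 (SE; 95% interval 0.95 to 1.595; limma adjusted p = 9.51e-04), a ratio of mean FPKM of 2.41. Lipa had the highest level of the 8 at 7 days, above 99.5% of all tested genes, and each 7-day library of Lipa lay above each of Soat1, the next in order. At 3 days Soat1, Lipa and Npc2 were the top of the order, with overlapping values between neighbours. The table places Lipa on mm10 chromosome 19, 34492108 to 34527545; for this and the other positions it is not stated whether starts count from 0 or 1.

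Npc2, the soluble lysosomal protein that binds cholesterol and passes it to Npc1, was at 285, 332 and 329 FPKM at 7 days and at 205, 165 and 216 FPKM at 3 days (chromosome 12, 84754185 to 84773186). The times did not overlap, and 7-day replicate 1 was the lowest of its time. The log2 change was 0.70 ± 0.14 (SE; limma adjusted p = 0.00758). Its membrane partner Npc1, which carries cholesterol out across the lysosomal membrane, was at 183, 175 and 177 FPKM at 7 days and at 95.8, 107 and 115 FPKM at 3 days. Here the 7-day libraries lay closer together (coefficient of variation 2.36%) than the 3-day libraries (9.09%), and the times did not overlap. The log2 change was 0.75 ± 0.10 (SE; limma adjusted p = 0.00186). The FPKM ratio of Npc2 to Npc1 within a library was 1.55, 1.89 and 1.85 at 7 days and 2.13, 1.54 and 1.88 at 3 days, and its times overlapped.

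The locus given for Npc1 (chromosome 18, 12169107 to 12236452) reaches across its neighbour Rmc1 on the other strand, which the table lists as 3110002H16Rik at that same locus. The GENCODE M21 genes overlap at their ends. 3110002H16Rik, named after its values were seen, was lower at 7 days, with a log2 change of -0.58 ± 0.10 (SE; limma adjusted p = 0.00489), at 24.7, 27.0 and 29.2 FPKM at 7 days and 40.3, 38.7 and 43.8 FPKM at 3 days. Whether the authors' counting used strand is not given in the sources used here, so the split of reads between Npc1 and this neighbour, or the antisense gene Gm15956 inside the locus, is uncertain. The Soat1 locus also holds Gm37648, a transcript of uncertain status on the other strand, that of Scarb1 one on its own strand (Gm42633), and that of Scarb2 the microRNA gene Mir6415.

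Scarb2, a lysosomal membrane protein that serves as a sorting receptor and whose folded domain can also pass cholesterol, was at 354, 352 and 391 FPKM at 7 days and at 126, 122 and 141 FPKM at 3 days. Its lowest 7-day library was 2.50 times its highest 3-day library. The log2 change was 1.49 ± 0.11 (SE; 95% interval 1.24 to 1.74; limma adjusted p = 2.6e-04), above that of 99.1% of tested genes (chromosome 5, 92441194 to 92505720). Its relative Scarb1, the receptor of high-density lipoprotein at the cell surface, was at 16.1, 19.3 and 17.4 FPKM at 7 days and at 11.5, 11.98 and 14.8 FPKM at 3 days. The times stood just apart, the lowest 7-day library at 1.09 times the highest 3-day one. Its log2 change was 0.44 ± 0.13 (SE; limma adjusted p = 0.033; chromosome 5, 125277088 to 125341036). The call of Scarb1 was lost when any single library other than 3-day replicate 3 was left out (adjusted p up to 0.111) and with quantile normalization (adjusted p = 0.0544). Within a library the FPKM of Scarb2 was 21.9, 18.2 and 22.4 times that of Scarb1 at 7 days and 10.9, 10.2 and 9.55 times at 3 days.

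Soat1, the acyltransferase that makes cholesteryl esters for storage, was at 416, 470.3 and 399 FPKM at 7 days and at 221, 259.8 and 241 FPKM at 3 days (chromosome 1, 156424449 to 156474280). The times did not overlap, and replicate 2 was the highest library at either time. The log2 change was 0.83 ± 0.12 (SE; limma adjusted p = 0.00252). Nceh1, the hydrolase that splits esters outside lysosomes, was at 193, 185 and 177 FPKM at 7 days and at 96.2, 92.4 and 96.5 FPKM at 3 days. It had the smallest spread of the 8 at 3 days, a coefficient of variation of 2.43%, and 4.27% at 7 days. Its log2 change was 0.95 ± 0.09 (SE; limma adjusted p = 5.93e-04; chromosome 3, 27182891 to 27245735). Levels of Nceh1 and Npc1 overlapped at either time, so their order is not resolved.

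Cyp27a1, the mitochondrial sterol hydroxylase, was the least abundant, at 3.85, 3.24 and 5.26 FPKM at 7 days and at 1.53, 2.89 and 2.56 FPKM at 3 days. Its coefficient of variation was 25.2% at 7 days and 30.6% at 3 days, the widest of the 8. The log2 change of 0.63 ± 0.23 (SE; 95% interval 0.09 to 1.16) had a limma adjusted p of 0.0636. The authors' deposited table gave it a q-value of 0.015. It was called with quantile normalization (log2 1.01), with each library centred on its median gene (log2 0.71) and among genes of the authors' filtered table (log2 0.63). It was not called with each library scaled to the macrophage markers (limma adjusted p = 0.109). Nor was it called when any single library was left out (limma adjusted p 0.064 to 0.185). The unfiltered table puts it at chromosome 1, 74735075 to 74738136, the last stretch of the annotated gene (GENCODE M21, 74713574 to 74737892), and the filtered table at 74713157 to 74732382, with the same FPKM; the other 7 genes have 1 locus in both. Which part of the transcript its FPKM covers is therefore uncertain.

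**Figure D2:**
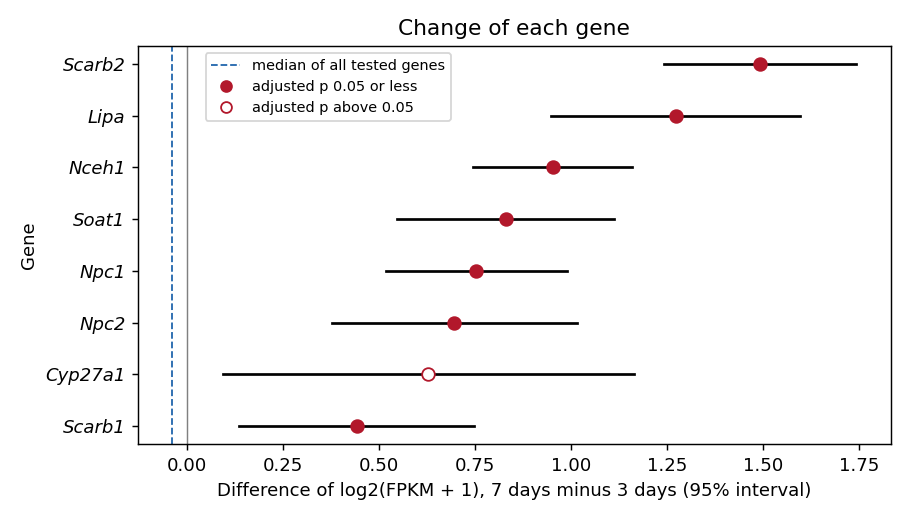
Difference of log2(FPKM + 1), 7 days minus 3 days, for each of the 8 genes, with the 95% interval from limma (bars). Filled points passed an adjusted p of 0.05 and the open point, Cyp27a1 (0.0636), did not; Scarb2 (1.49) and Lipa (1.27) lie farthest from the dashed median of all tested genes (-0.04).

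Among the libraries of 1 time, the genes did not all follow the same order. At 3 days, replicate 3 was highest for 6 of the 8 genes and replicate 1 lowest for 5. At 7 days, replicate 2 was highest for 4 genes, and replicates 1 and 3 for 2 each.

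Ratios between genes in the same library are given here as FPKM ratios, and their differences and tests on the log2 ratio of FPKM + 1, in which the added 1 weighs on low genes such as Cyp27a1. Of 6 ratios computed, 3 stood apart between the times, each higher at 7 days, and 0 stood apart in the other direction. Ratios that share a gene, such as Lipa, are not independent. How often ratios of other gene pairs stand apart was not computed. With 3 libraries against 3, the exact permutation test cannot go below p = 0.1, and the adjusted p of these 3 was 0.2. Lipa over Soat1, lysosomal splitting against re-esterification, was 1.26, 1.27 and 1.40 at 7 days and 0.894, 0.917 and 1.09 at 3 days. On the log2 scale the ratio was 0.39 ± 0.08 at 7 days and -0.05 ± 0.15 at 3 days (SD, n = 3), a difference of 0.44 (exact two-sided permutation p = 0.1). Lipa over Nceh1, the acid against the neutral hydrolase, was 2.73, 3.23 and 3.16 at 7 days and 2.05, 2.58 and 2.72 at 3 days; the closest pair of libraries differed by little, 2.73 at 7 days beside 2.72 at 3 days. The log2 difference was 0.32 (exact two-sided permutation p = 0.1), and 0.198 without 3-day replicate 1. Scarb2 over Scarb1 had the largest log2 difference of the 6, 1.05 (exact two-sided permutation p = 0.1).

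Nceh1 over Soat1, hydrolysis against synthesis of stored esters, overlapped between the times at 0.463, 0.393 and 0.444 at 7 days and 0.435, 0.356 and 0.400 at 3 days. Its log2 difference was 0.12 (exact two-sided permutation p = 0.4), and ran from 0.0455 to 0.191 when single libraries were left out. For Npc2 over Npc1 the log2 difference was -0.06 (exact two-sided permutation p = 0.8), with no stable sign when single libraries were left out. For Cyp27a1 over Soat1 it was -0.20 (exact two-sided permutation p = 0.7), but -0.0129 with 0.1 in place of 1 added to FPKM, and -0.0065 without 7-day replicate 2 or -0.41 without 7-day replicate 3. A p of this size in 3 against 3 libraries does not show that these ratios were equal.

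**Figure D3:**
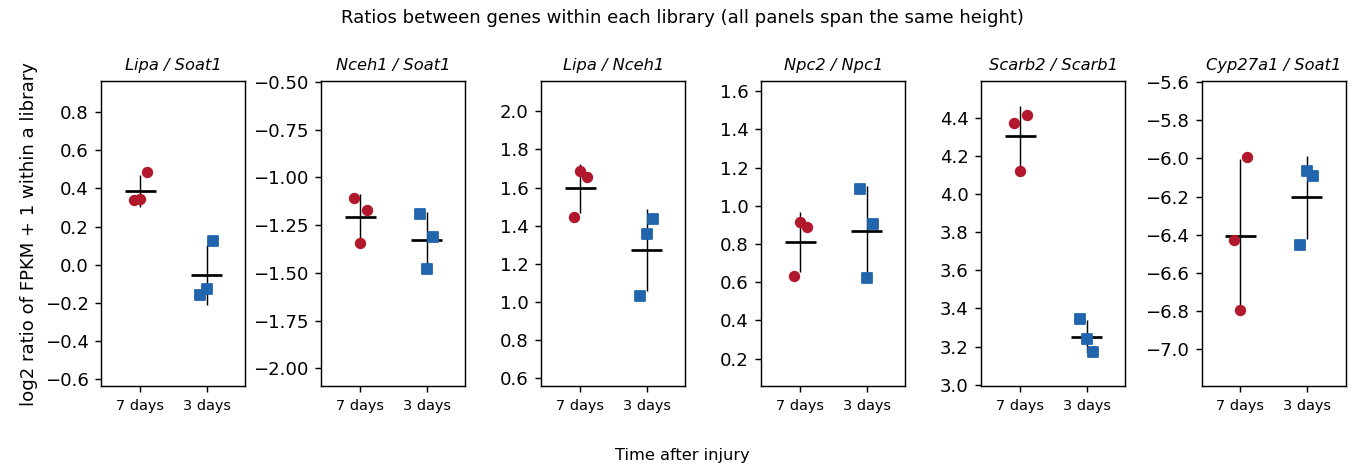
Log2 ratio of FPKM + 1 between 2 genes in each library, at 7 days (circles) and 3 days (squares), with the mean (horizontal line) and SD (vertical line). Each panel spans the same height; Lipa over Soat1, Lipa over Nceh1 and Scarb2 over Scarb1 stand apart between the times, and the other 3 ratios overlap.

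As parts of the summed level of the 8, Lipa held 27.3% ± 0.67 at 7 days and 22.9% ± 1.9 at 3 days, and Scarb2 held 17.8% ± 1.3 at 7 days and 12.8% ± 0.53 at 3 days (SD, n = 3). Soat1 held 20.8% ± 1.3 at 7 days and 23.8% ± 2.0 at 3 days, and Npc2 15.3% ± 0.83 at 7 days and 19.3% ± 2.5 at 3 days. Npc1 held 8.71% ± 0.53 at 7 days and 10.4% ± 0.34 at 3 days, and Scarb1 0.856% ± 0.045 at 7 days and 1.25% ± 0.087 at 3 days. The parts of Soat1, Npc2, Npc1 and Scarb1 were smaller in every 7-day library than in every 3-day library. For Soat1 the gap was narrow, 22.04% in 7-day replicate 2 beside 22.13% in 3-day replicate 3. Those of Lipa and Scarb2 were larger in every 7-day library, and those of Nceh1 and Cyp27a1 overlapped. These shares add up to a fixed total, so a larger part of 1 gene lowers the others.

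In a list for sterol transfer between lysosomes, endoplasmic reticulum and plasma membrane, 13 of 22 genes were called higher and 1 lower at 7 days, with a median log2 change of 0.44. Among all tested genes, 18.8% were called higher and 20.3% lower. The list holds lysosomal membrane proteins and sensors besides sterol carriers, so the count is not one of carriers alone. The lysosomal membrane glycoprotein Lamp1, which binds cholesterol, was at 2092, 2018 and 1771 FPKM at 7 days and 859, 875 and 961 FPKM at 3 days, and its times lay far apart (log2 1.12 ± 0.16, SE; limma adjusted p = 0.00231). Its relative Lamp2 rose by 0.86 ± 0.14 on that scale (limma adjusted p = 0.00403). Osbpl8, an oxysterol-binding relative at contacts between the endoplasmic reticulum and the plasma membrane, was at 329, 306 and 339 FPKM at 7 days and 161, 118 and 146 FPKM at 3 days (log2 1.2001 ± 0.14; limma adjusted p = 0.00108). Gpr155, a lysosomal cholesterol sensor of lower abundance, averaged 11.9 ± 0.45 FPKM in 7-day libraries and 4.83 ± 1.4 FPKM in 3-day libraries (SD, n = 3). The carrier Stard5 had a mean of 21.5 ± 1.5 FPKM at 7 days and 11.4 ± 1.4 FPKM at 3 days. The single gene called lower was Gramd1a, a sterol carrier of the endoplasmic reticulum named after its value was seen, with 8.86, 10.2 and 9.71 FPKM at 7 days and 13.3, 16.05 and 12.9 FPKM at 3 days (log2 -0.51 ± 0.13; limma adjusted p = 0.0174); its call was lost without 7-day replicate 1 (adjusted p = 0.0624) or 3 (0.0506), and the authors' deposited table called 0 of the list lower. At an unadjusted limma p of 0.05 it was 1 of 2 lower genes; the other, Osbpl5, of the oxysterol-binding family and also named after its value was seen, had a log2 change of -0.55 ± 0.23 (limma adjusted p = 0.0958).

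Genes that send enzymes to lysosomes were called higher in 5 of 10 and lower in 0 (0 also at an unadjusted limma p of 0.05 and by the authors' deposited q-values), with a median log2 change of 0.45. The share of all tested genes called was 18.8% higher and 20.3% lower. Sort1, a sorting receptor that can carry lysosomal enzymes, was at 83.7, 86.5 and 81.0 FPKM at 7 days and 33.4, 37.6 and 38.0 FPKM at 3 days (log2 1.18 ± 0.09, SE; limma adjusted p = 3.28e-04). The mannose 6-phosphate receptors, which bring tagged soluble enzymes and Npc2 to the lysosome, rose as well. M6pr averaged 329.97 ± 21.1 FPKM in 7-day libraries and 190.1 ± 21.9 FPKM in 3-day libraries, and Igf2r 148 ± 3.8 FPKM in 7-day libraries and 82.6 ± 11.9 FPKM in 3-day libraries (SD, n = 3). Their log2 changes were 0.80 ± 0.12 for M6pr and 0.84 ± 0.12 for Igf2r (SE; limma adjusted p = 0.00292 and 0.00246). Gnptg and Nagpa, which take part in making that tag, rose by 0.58 ± 0.13 and 0.51 ± 0.10 on the log2 scale. Gnptab, which also takes part in it, was not called (log2 -0.05 ± 0.15, SE, limma adjusted p = 0.824).

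Of 17 other enzymes and carriers of cholesteryl esters and oxysterols, 10 were tested and 7 have no row. Of the 10, 0 were called higher (0 also at an unadjusted limma p of 0.05 and by the authors' deposited q-values). Called lower were 4, with 6 not called and a median log2 change of -0.29. The share of all tested genes called lower was 20.3%, and 18.8% were called higher. Ch25h, the hydroxylase of macrophages that turns cholesterol into an oxysterol, was at 3.25, 4.81 and 4.2 FPKM at 7 days and 14.4, 22.0 and 25.1 FPKM at 3 days, without overlap (log2 -2.06 ± 0.22, SE; limma adjusted p = 8.85e-04). Star, which brings cholesterol into mitochondria, was at 2.19, 1.18 and 0.708 FPKM at 7 days and 5.16, 4.98 and 4.30 FPKM at 3 days (log2 -1.35 ± 0.24; limma adjusted p = 0.00535). Soat2, the isoform of Soat1 known from liver and intestine, had means of 0.918 ± 0.255 FPKM in 7-day libraries and 2.26 ± 0.53 FPKM in 3-day libraries (SD, n = 3; limma adjusted p = 0.0203). Soat1 was thus the more abundant of the pair per length at either time. Cyp7b1, a hydroxylase of oxysterols, had means of 0.254 ± 0.102 FPKM in 7-day libraries and 1.36 ± 0.76 FPKM in 3-day libraries (SD, n = 3; limma adjusted p = 0.0394). The call of Soat2 was lost without 3-day replicate 3 or 7-day replicate 1 or 3 (adjusted p up to 0.0693), and that of Cyp7b1 on leaving out each library in turn other than 3-day replicate 1 (highest adjusted p 0.116). The electron carriers that serve Cyp27a1 were not called: Fdx1 had a log2 change of -0.26 ± 0.18 (limma adjusted p = 0.27) and Fdxr of 0.09 ± 0.15 (limma adjusted p = 0.644). With quantile normalization 1 gene of this list was called higher and 2 lower, and 2 were called lower among genes of the authors' filtered table, and likewise without 3-day replicate 3 or 7-day replicate 1 or 3. Lower calls over all genes fell as well, from 2645 to 1809 with quantile normalization and to 1788 without 7-day replicate 1. Markers of other cells were also lower at 7 days, as given above, and whether those cells had a part in this list's lower calls was not tested.

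For comparison, lysosomal hydrolases of sphingolipids and glycans were called higher in 14 of 16 tested and lower in 0 (0 also at an unadjusted limma p of 0.05 and by the authors' deposited q-values), with a median log2 change of 1.005, beside 0.79 for the 8 genes. Hexa and Glb1, which break down gangliosides, changed by 1.73 and 1.45, and Fuca1, which removes fucose, and Galc, which splits a main lipid of myelin, by 1.28 and 1.1999. Genes of sterol efflux and LXR targets were higher in 5 of 7 tested and lower in 0 (likewise 0 by both of these), with a median of 1.45. The exporters Abcg1 and Abca1 changed by 1.45 and 1.34, the ubiquitin ligase Mylip by 1.45, the phospholipid transfer protein Pltp by 1.53 and the apolipoprotein Apoc1 by 3.14; Apoe was set aside for an unreliable row. Sterol synthesis genes and SREBP2 targets were called higher in 0 of 20 tested (again 0 by both) and lower in 7, with a median of -0.13. Beside these lists, 18.8% of all tested genes were called higher and 20.3% lower. Without 7-day replicate 1 or 2 the sterol synthesis list had 3 lower calls, and without 3-day replicate 3 it had 4. Without 3-day replicate 2 it had 2 higher and 4 lower. Over all 13042 genes, lower calls were 1788 without 7-day replicate 1 and 1697 without 7-day replicate 2, beside 2645 with all libraries. The squalene epoxidase Sqle changed by -1.11, the kinase Pmvk by -0.59 and the squalene synthase Fdft1 by -0.57. The call of Fdft1 was lost on leaving out each library in turn other than 3-day replicate 1 (highest adjusted p 0.122). All of these are differences of log2(FPKM + 1), and no difference between the lists was tested.

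**Figure D4:**
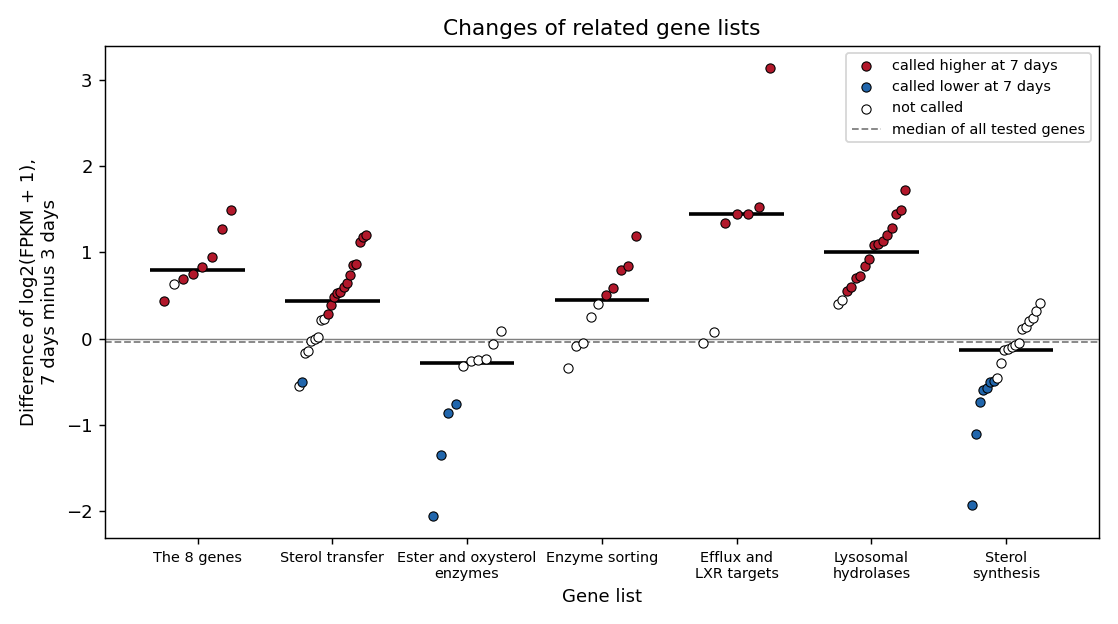
Difference of log2(FPKM + 1), 7 days minus 3 days, of each tested gene (points) in the 8 genes and 6 related lists, coloured by call, with the median of each list (thick line). The medians run from -0.29 for ester and oxysterol enzymes to 1.45 for efflux genes and LXR targets, beside -0.04 for all tested genes (dashed line).

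Among 6015 genes with a mean of 10 FPKM or more, Il18bp, Abhd12 and Fuca1 had the profiles closest to Lipa over the 6 libraries, with Pearson r of 0.9997, 0.9992 and 0.9991. For Soat1 the closest were Yipf4, Pole3 and Txndc15, with r of 0.9992, 0.9985 and 0.9982. These values describe 6 libraries that fall into the 2 times, and all genes of a library share that library's depth.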

How the data were processed

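Ribosome-bound RNA of myeloid cells was measured by RNA sequencing in 6 libraries (ScriptSeq v2 kit, per the labels' protocols). The submitters' processing notes name TopHat2 2.0.12, Cufflinks 2.2, Cuffdiff 2.2.1 and mouse build mm10, without role or order. Both deposited tables, unfiltered and filtered, hold FPKM per library, per the file headers, with the authors' own log2 fold change, p-value, q-value and a test score that was not used. The scaling between libraries is not given in the sources used here.

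Of 13960 rows, 918 were set aside: test status other than OK (45), library values missing the authors' mean by over 1% (838), a 0 beside 100 FPKM or more (14), or a symbol on more than 1 row (32); some meet several. The other 13042 were fitted with limma 3.58.1 (R 4.3.3; mean-dependent prior variance) on log2(FPKM + 1), 7 days minus 3 days, two-sided, Benjamini-Hochberg adjusted. This scale understates changes of low genes. The script was tested on simulated data. Ratios used an exact permutation test (scipy 1.17.1).

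The number of reads is unknown, so no counting interval is given. Judged by the steps that low FPKM values take, depths relative to 3-day replicate 1 were 0.812, 0.819 and 0.886 in 7-day replicates 1, 2 and 3, and 0.939 and 0.758 in 3-day replicates 2 and 3, provided that FPKM refers to a library's own fragments.

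The 8 genes, the lists and the tests were chosen with earlier results of these data known. Named besides the 8 were, per list, up to 5 called genes of largest change (higher mean at least 1 FPKM), and the 3 genes most like Lipa and Soat1; others are given as uncalled, set aside or named after their values were seen. Some genes that this rule names are not reported here. Alternatives were another pseudocount (0.1), filters, scalings, a constant prior variance, the replicate number as a block and leaving out each library.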

Additional observations from a re-analysis of the deposited data

How the results depend on the processing

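Across 14 alternatives the 8 genes kept a positive change, and 6 to 8 of them were called higher and 0 lower. Lipa, Npc2, Npc1, Scarb2, Soat1 and Nceh1 were called in each (adjusted p up to 0.0344, Npc2). Scarb1 was lost with quantile normalization (log2 0.40), and leaving out single libraries gave 0.38 to 0.54. Cyp27a1 was gained with quantile normalization (1.01), with each library centred on its median gene (0.71) and in the authors' filtered table (0.63); leaving out single libraries gave 0.44 to 0.75. Over all genes the filtered table gave 1419 lower, and leaving out single libraries 1572 to 2207 higher and 1697 to 2565 lower, the least without 7-day replicate 2. Quantile normalization called 2 sterol transfer genes lower, 1 ester and oxysterol enzyme higher and 2 lower, and 4 sterol synthesis genes lower; the filtered table called 2 ester and oxysterol enzymes lower. Leaving out single libraries gave 0 to 1 lower for sterol transfer, 2 to 4 lower for ester and oxysterol enzymes, 0 to 1 lower for enzyme sorting, and 0 to 2 higher and 3 to 6 lower for sterol synthesis. Among genes named from the lists, Soat2, Cyp7b1, Nagpa and Fdft1 lost their call under some alternative, each of them with quantile normalization. Gramd1a, named after its value was seen, lost its call without 7-day replicate 1 (limma adjusted p = 0.0624) or 3 (0.0506). The cause of these moves was not tested. The Npc2 to Npc1 log2 ratio difference ran from -0.18 to 0.0502 when single libraries were left out, and changed sign without 3-day replicate 1 (0.0502) or 7-day replicate 1 (0.0324). The other ratio differences kept their sign, from 0.389 to 0.532 for Lipa over Soat1, 0.198 to 0.401 for Lipa over Nceh1, 0.0455 to 0.191 for Nceh1 over Soat1, 0.995 to 1.14 for Scarb2 over Scarb1 and -0.41 to -0.0065 for Cyp27a1 over Soat1, which was -0.0129 with pseudocount 0.1.

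Same-numbered libraries of the 2 times deviated together with r of 0.115, 0.0096 and 0.0105. Differently numbered libraries had r from -0.0626 to 0.0476, and 7-day replicate 2 correlated best with 3-day replicate 3 (0.0417). Values this small cannot decide whether the numbers pair the libraries. With the replicate number as a block, 7 of the 8 genes, and 2450 genes in all, were called higher and 2425 lower; Cyp7b1 (adjusted p = 0.0583) and Fdft1 (0.0552) lost their calls. Read depth, which sets the precision for Cyp27a1 above all, is unknown.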
